A study of Mus musculus with 6 samples.

Results

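A group of 10 genes for transcription factors of the heart muscle were followed in the left ventricle (LV) of *Lztr1* mutant and WT mice. They are *Gata4*, *Gata6*, *Nkx2-5*, *Tbx5*, *Tbx20*, *Hand2*, *Mef2a*, *Mef2c*, *Mef2d*, and *Srf*. The rule that picks them uses gene names and no measured value, and they make up 10 of the 56923 genes listed and 10 of the 17212 genes tested. The lowest count of any of them was 698, for *Tbx5* in a mutant mouse, and all 10 passed the filter on low counts. The mRNA-Seq compared 3 WT mice with 3 *Lztr1* R409C/+ mice, all 12 weeks old. The mutants carry 1 knock-in allele with the p.R409C substitution in LZTR1, an adaptor through which RAS proteins are marked for degradation, and both groups share a C57BL/6J background after backcrossing. The allele is present in every cell type from the germ line on and was made with CRISPR/Cas9, the study used males to assess its phenotypes, and the LVs were taken after perfusion with PBS. The label of the samples names heart as the tissue. LV muscle genes were abundant. Of 6 genes listed for atrial muscle, *Myl7*, *Sln*, and *Bmp10* lay between 0 and 0.262 CPM (counts scaled to a common library total) and *Myl4* between 0.357 and 0.570 CPM, while *Stard10* was at 9.55 to 16.3 CPM and *Nppa* at 37.7 to 106.5 CPM.

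These factors act together on the enhancers of heart muscle genes. GATA, NK, T-box, and HAND proteins lay down the cardiac lineage in the embryo and stay on in the adult heart, where they hold the genes of the sarcomere, calcium handling, and conduction active. MEF2 proteins bind an A/T-rich site and couple calcium signals to transcription through class II histone deacetylases, which hold them inactive. SRF binds the CArG box and is switched by MAP kinase-dependent partners of the ELK family or by actin-dependent partners of the myocardin family. RAS signaling through ERK is known to act on GATA4 and on ELK proteins after they are made, which mRNA levels do not record.

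The start regions of the members were searched for the letters that these factors bind. RefSeq windows of 300 bases (build GRCm38.p6, 250 before and 50 from the start) were found for 7 members, with 9 windows in all, and not for *Gata4*, *Gata6*, and *Tbx5*. A pair of stretches is shown because each holds the site of the protein family that its own gene encodes, in capitals. The first covers positions -120 to -41 before a start of *Srf* (chr17:46556203-46556282, minus strand), and the second covers -80 to 15 around the start of *Mef2a* (chr7:67372844-67372938, minus strand).
Srf: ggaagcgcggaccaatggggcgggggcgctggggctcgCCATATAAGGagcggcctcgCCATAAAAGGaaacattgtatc
Mef2a: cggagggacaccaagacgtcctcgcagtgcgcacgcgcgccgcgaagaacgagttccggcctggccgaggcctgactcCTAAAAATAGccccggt
The *Srf* stretch holds 2 CArG boxes, which begin at positions -82 and -62. A CArG box was found, on either strand, in 1.63% of the 32851 windows of the table. The *Mef2a* stretch holds 1 MEF2 site that spans the start, and 3.19% of all windows held one. Of 2 shorter motifs, the GATA motif AGATAA was found in the window of *Hand2* on the reverse strand at -172 to -167 and in 11.2% of all windows. The T-box motif AGGTGT was found at 1 of the 3 starts of *Mef2c* and in 13.7% of all windows. None of the 4 motifs overlapped another in these windows, and the windows of *Nkx2-5*, *Tbx20*, and *Mef2d* held none of these letters. These are matches of letters and not measured binding.

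Total counts ranged from 66130887 to 72641124 per mouse. A count of 3 equals 0.0317 to 0.0541 CPM, which bounds counting error but no other error. CPM were scaled with TMM, a factor for the composition of each library. The mitochondrially encoded genes took 36.5%, 37.3%, and 13.8% of the counts in WT mice 1, 2, and 3 and 45.4%, 35.0%, and 29.7% in mutant mice 1, 2, and 3. WT mouse 3 and mutant mouse 1 therefore stood apart from the others, in opposite directions. *Lztr1* itself was at 24.2, 24.2, and 22.2 CPM in WT mice and 23.9, 27.9, and 25.3 CPM in mutants, a log2 difference of 0.13 ± 0.15 (SE, adjusted p = 0.854). A substitution need not change the level of its mRNA, so this value does not check the labels. The edgeR p-values below set the genotype difference against the variation between single mice of 1 age, estimated in part from all genes. In bulk tissue, fewer cells of a type and less RNA per cell cannot be told apart.

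Per length of transcript, *Nkx2-5* was the most abundant member in each of the 6 mice. Levels between genes were compared as counts per kilobase of merged exons, scaled like CPM (RPKM), and the mean in WT mice was 36.1 ± 3.67 (SD, n = 3). *Mef2d* followed with 19.1 ± 2.77, *Srf* with 16.5 ± 1.66, *Mef2a* with 14.0 ± 1.55, *Gata4* with 13.5 ± 4.38, and *Hand2* with 12.1 ± 0.432 RPKM. Lower levels were found for *Tbx20* with 9.76 ± 0.961, *Gata6* with 5.53 ± 0.658, *Tbx5* with 3.60 ± 1.13, and *Mef2c* with 2.63 ± 0.733 RPKM. The steps from *Nkx2-5* to *Mef2d* and from *Tbx20* to *Gata6* exceeded the range of the mice in both genotypes. From *Mef2d* down to *Hand2*, neighbors overlapped and their order changed between mice, as did that of *Tbx5* and *Mef2c*. *Hand2* stood above *Tbx20* and *Gata6* above *Tbx5* in all WT mice, and their ranges overlapped in the mutants. Of all tested genes with a length, the members lay between the 65.9th and the 96.8th percentile.

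**Figure D1:**
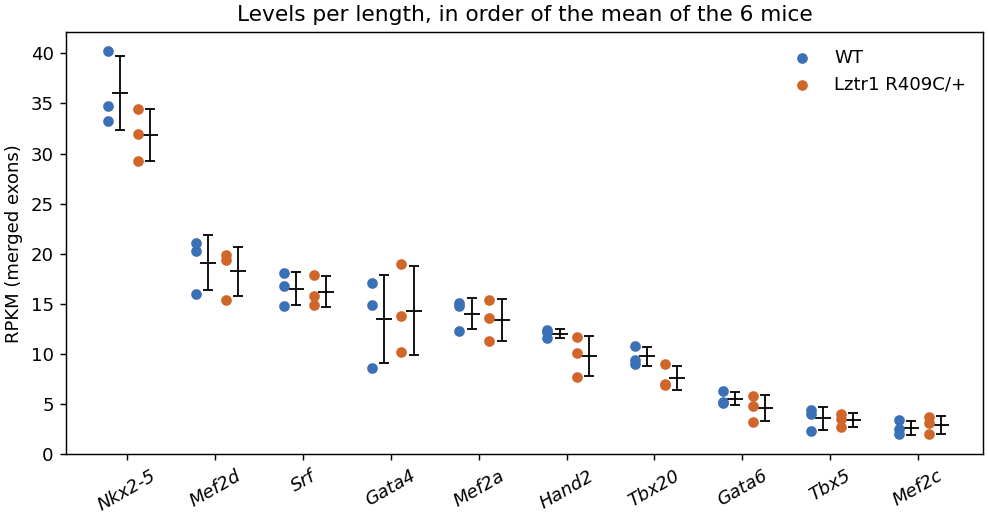
RPKM of each member (vertical axis, from 0) by gene in order of the mean of the 6 mice; points are mice, and bars are the mean and SD of 3 mice of a genotype. *Nkx2-5* stands above the other members in both genotypes, and the members from *Mef2d* to *Hand2* overlap.

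The order depends on which exons are counted as the gene. With the length of the canonical transcript alone, an alternative added after the data were seen, *Mef2a* moved from the fifth place to the first in the order of means over the 6 mice, since its merged exons cover 15500 bases and its canonical transcript 5520. Its WT mean then was 39.4 RPKM, beside 40.0 for *Nkx2-5*. *Tbx5* then had the lowest level with 4.29 RPKM, below *Mef2c* with 6.33.

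The main question was whether the mutation changed the mRNA of these regulators in the adult LV. No member passed the threshold of an adjusted p of 0.05 in edgeR's quasi-likelihood test, and none had an unadjusted p under 0.05. Of all 17212 genes, 7 (0.0407%) passed the adjusted threshold and 1486 (8.63%) had an unadjusted p under 0.05. As many as 8 members had a fitted value below 0 and 2 above it, with a median log2 difference of -0.07, and 48.6% of all tested genes were below 0, with a median of 0.01. Scaling by library size alone moved the median of all genes to -0.14 and that of the members to -0.19, with 65.5% of all genes and again 8 members below 0. The number of members below 0 ranged from 6 without WT mouse 1 or WT mouse 2 to 10 without WT mouse 3. Of all tested genes, 47.7%, 49.2%, and 47.5% were below 0 without WT mouse 1, 2, and 3. The members' median was -0.02 without WT mouse 2, -0.03 without WT mouse 1, -0.15 without mutant mouse 2, -0.17 without WT mouse 3, and -0.19 without mutant mouse 3. The 95% intervals of the 10 members lay between -0.72 and 0.69 on the log2 scale, and each of them held 0.

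**Figure D2:**
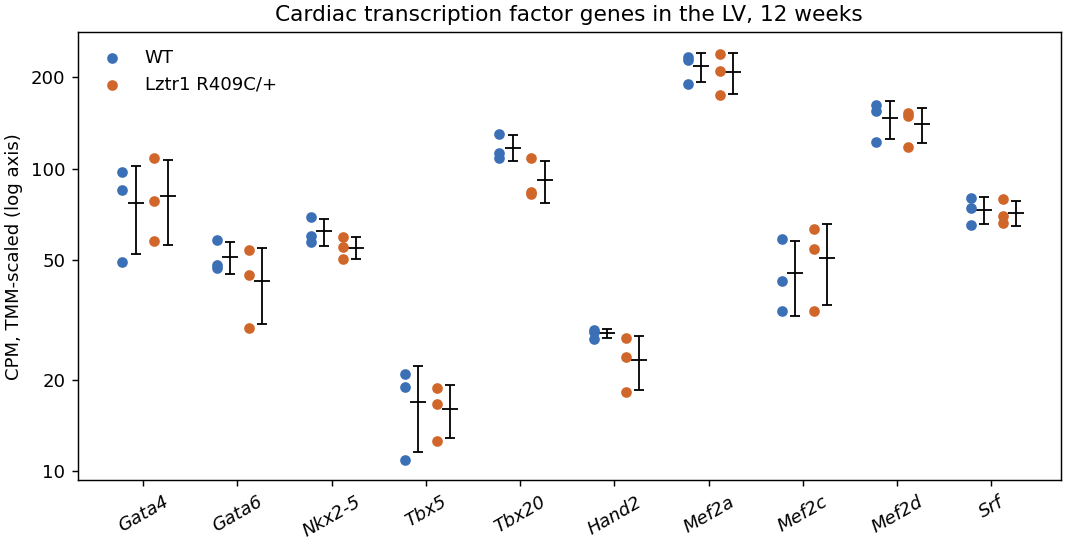
CPM of each member (vertical log axis) by gene; points are mice, and bars are the mean and SD of 3 mice of a genotype. The genotypes overlap in 9 members, and the nearest *Tbx20* values of the genotypes are 108.6 and 108.2 CPM.

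*Gata4* (ENSMUSG00000021944.16, GRCm39 chr14:63436362-63509141, minus strand) and *Gata6* (ENSMUSG00000005836.11, chr18:11051565-11086995, plus strand) encode zinc finger factors that bind the same motif and in part replace each other in heart muscle. *Gata4* was at 84.9, 97.1, and 49.1 CPM in WT mice 1, 2, and 3 and at 57.8, 78.3, and 108.2 CPM in the mutants. The lowest value belonged to a WT mouse and the highest to a mutant, and the log2 difference was 0.08 ± 0.27 (SE, adjusted p = 0.958, 95% interval -0.50 to 0.66). *Gata6* was at 58.0, 48.0, and 47.0 CPM in WT mice and 29.8, 53.7, and 44.5 CPM in mutants. Mutant mouse 1 lay far below the others, which overlapped between the genotypes, and the log2 difference was -0.26 ± 0.21 (adjusted p = 0.774, interval -0.70 to 0.19). It was -0.06 without mutant mouse 1 (unadjusted p = 0.722), -0.15 without WT mouse 1 (unadjusted p = 0.528), and -0.46 without mutant mouse 2 (unadjusted p = 0.0568). *Gata6* shares 1154 exon bases with the antisense gene *Gata6os*, which was at 4.84 to 5.63 CPM. The library kit is not stated to mark strand, so reads from such partners cannot be told apart.

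*Nkx2-5* (ENSMUSG00000015579.6, chr17:27057638-27063983, minus strand) encodes the NK homeodomain factor that marks cardiac progenitors and stays on in adult heart muscle. It was at 57.1, 59.7, and 69.1 CPM in WT mice and 50.2, 55.0, and 59.2 CPM in mutants. The highest mutant value lay between the WT values, and the log2 difference was -0.18 ± 0.15 (adjusted p = 0.791, interval -0.51 to 0.15). It was -0.09 without WT mouse 3, -0.32 with a correction for gene length (unadjusted p = 0.0546), and -0.35 when scaled by library size alone. From the lowest mouse to the highest it spanned 0.46 on the log2 scale, against 1.14 for *Gata4*.

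The T-box genes code for an activator of conduction and contractile genes, TBX5, and for TBX20, a factor that activates and represses and is needed to maintain adult heart muscle. *Tbx5* (ENSMUSG00000018263.12, chr5:119970733-120023284, plus strand) was at 20.9, 19.0, and 10.9 CPM in WT mice and 12.6, 16.7, and 18.8 CPM in mutants. The lowest values were those of WT mouse 3 and mutant mouse 1, and the log2 difference was -0.07 ± 0.24 (adjusted p = 0.957, interval -0.60 to 0.45). With the counts of *Gm43050*, an antisense lncRNA gene that shares 194 exon bases with *Tbx5*, added, its value turned to 0.0232 (unadjusted p = 0.919). *Tbx20* (ENSMUSG00000031965.16, chr9:24629434-24685599, minus strand) was at 108.6, 130.2, and 112.5 CPM in WT mice and 82.4, 108.2, and 83.8 CPM in mutants.

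*Tbx20* was the only member whose genotypes did not overlap, by a margin of WT mouse 1 over mutant mouse 2 that was small against the SDs of 11.5 CPM in WT mice and 14.5 in mutants. Of all tested genes, 7.23% were lower in the mutants without overlap and 8.3% were higher without overlap. The log2 difference of *Tbx20* was -0.36 ± 0.17 (SE, interval -0.72 to 0.01, unadjusted p = 0.0534, adjusted p = 0.587). The exact permutation test gave p = 0.1, two-sided, which is the smallest that 3 mice against 3 allow. The genotypes overlapped when CPM were scaled by library size alone or by the upper quartile, and also when WT mouse 2 was left out. Without mutant mouse 2 the difference was -0.50 (unadjusted p = 0.0182), and without WT mouse 2 it was -0.28 (unadjusted p = 0.197). With a correction for gene length it was -0.29 (unadjusted p = 0.0937).

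*Hand2* (ENSMUSG00000038193.5, chr8:57774011-57777677, plus strand) encodes a basic helix-loop-helix factor required for growth of the embryonic ventricle. It was at 27.4, 29.4, and 28.8 CPM in WT mice and 18.3, 23.9, and 27.6 CPM in mutants. Mutants 1 and 2 lay below all WT mice and mutant 3 within their range, and the log2 difference was -0.29 ± 0.17 (adjusted p = 0.679, interval -0.67 to 0.09). It was -0.15 without mutant mouse 1 (unadjusted p = 0.354) and -0.43 without mutant mouse 3 (unadjusted p = 0.0304). *Hand2* overlaps on 468 exon bases with the antisense lncRNA gene *Hand2os1*, which had more counts than *Hand2* in every mouse. *Hand2os1* was at 42.4, 32.1, and 57.1 CPM in WT mice and 49.97, 42.7, and 34.9 CPM in mutants, a log2 difference of -0.05 ± 0.21 (adjusted p = 0.970). With the counts of *Hand2os1* and of the low antisense gene *Gm34030* added to those of *Hand2*, the difference of the sum was -0.12 (unadjusted p = 0.455).

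**Figure D3:**
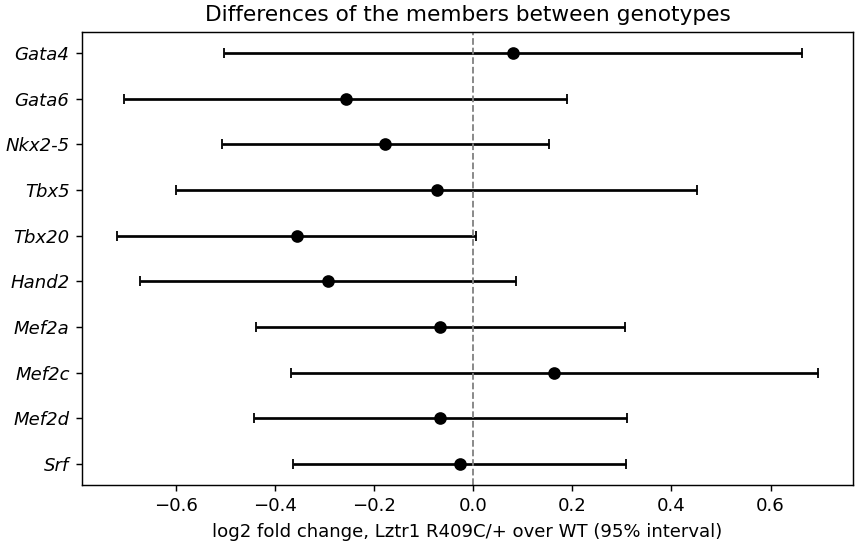
Log2 fold change of each member, mutant over WT (horizontal axis), by gene; points are the fitted values and bars the 95% intervals of edgeR's quasi-likelihood test. All intervals hold 0, and that of *Tbx20* ends at 0.01.

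The MEF2 genes code for MADS-box factors of 1 family. *Mef2a* (ENSMUSG00000030557.18, chr7:66880911-67022606, minus strand), whose product is a main MEF2 protein of adult heart muscle, was at 228.6, 234.0, and 190.1 CPM in WT mice and 210.2, 238.8, and 174.6 CPM in mutants. The ranges of the genotypes nearly coincided, and the log2 difference was -0.07 ± 0.17 (adjusted p = 0.944, interval -0.44 to 0.31). It shares 1081 exon bases with *Lysmd4* on the opposite strand, which was at 8.01 to 14.4 CPM. *Mef2d* (ENSMUSG00000001419.18, chr3:88049185-88079398, plus strand), a known mediator of stress-dependent remodeling, was at 155.4, 161.8, and 122.3 CPM in WT mice and 118.2, 148.8, and 152.7 CPM in mutants. WT mouse 3 and mutant mouse 1 had the lowest values, and the log2 difference was -0.07 ± 0.17 (adjusted p = 0.944, interval -0.44 to 0.31).

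*Mef2c* (ENSMUSG00000005583.17, chr13:83652064-83815555, plus strand), required for the embryonic right ventricle and also used in endothelium, was at 58.7, 42.6, and 33.9 CPM in WT mice and 63.3, 33.9, and 54.3 CPM in mutants. Each genotype held a value near 34 CPM and one near or above 58 CPM, and the log2 difference was 0.16 ± 0.24 (adjusted p = 0.893, interval -0.37 to 0.69). Without WT mouse 3 and mutant mouse 1, an alternative added after the data were seen, its value turned to -0.20 (unadjusted p = 0.440).

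*Srf* (ENSMUSG00000015605.7, chr17:46857767-46867119, minus strand) had the narrowest spread of the members, with 0.29 on the log2 scale over the 6 mice. It was at 79.7, 73.9, and 65.1 CPM in WT mice and 69.7, 65.9, and 79.1 CPM in mutants. All mutants lay within the WT range, and the log2 difference was -0.03 ± 0.15 (adjusted p = 0.975, interval -0.36 to 0.31).

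Mice of the same genotype often differed more from each other than the genotypes did. Mutant mouse 1 had the lowest value of 5 members (*Gata6*, *Nkx2-5*, *Tbx20*, *Hand2*, and *Mef2d*), and WT mouse 3 of 3 (*Gata4*, *Tbx5*, and *Srf*). The median of the members, centered on the mean of the 6 mice, was -0.29 in mutant mouse 1 and -0.15 in WT mouse 3, against 0.05 to 0.17 in the other 4 mice. These are the mice with the highest and the lowest mitochondrial share, and the part of that share in the members' levels was not tested. With both left out, no member passed the adjusted threshold, and 9 of 10 members were below 0, beside 49.1% of all tested genes. The difference of *Tbx20* was then -0.31 (unadjusted p = 0.105), that of *Hand2* -0.14, that of *Gata6* -0.11, and that of *Nkx2-5* -0.03.

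**Figure D4:**
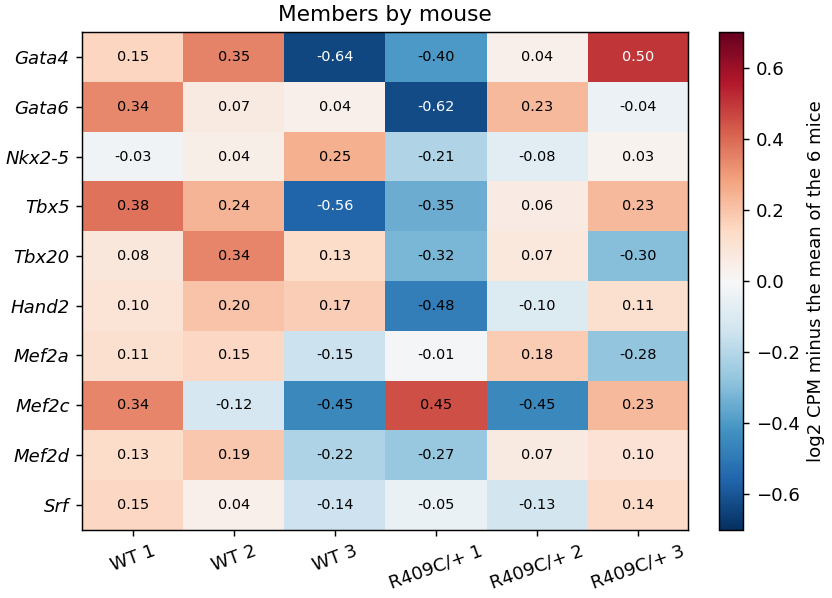
Log2 CPM of each member (rows) in each mouse (columns) minus the mean of that gene over the 6 mice; red is above and blue below the mean, and R409C/+ marks mutants. *Gata4* and *Tbx5* are lowest in WT mouse 3 and next lowest in mutant mouse 1, while *Mef2c* is highest in mutant mouse 1.

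Base composition also differed between the libraries. Over the 10% of tested genes with the highest GC content (57.9% or more), the median deviation was 0.28 on the log2 scale in mutant mouse 3 and -0.10 in mutant mouse 1. *Gata4*, *Hand2*, *Srf*, and *Nkx2-5* reach that value, with a GC content of 58.5%, 59.1%, 60.2%, and 67.1% in the canonical transcript. With a correction for GC content, added after the data were seen, *Hand2* had a log2 difference of -0.40 (unadjusted p = 0.0137, adjusted p = 0.371) and *Nkx2-5* one of -0.27 (unadjusted p = 0.0787). *Gata4* turned to -0.04 (unadjusted p = 0.866). Libraries differed by gene length too. Over the 10% of tested genes with the longest merged exons, the median deviation was 0.06, 0.09, and 0.05 in WT mice 1, 2, and 3. In mutant mice 1, 2, and 3 it was -0.05, 0.01, and -0.09.

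Members were compared by the root mean square difference between their centered log2 CPM over the 6 mice. *Mef2d* and *Srf* were closest to each other, at 0.138. *Nkx2-5* and *Hand2* were likewise each other's closest, at 0.146, as were *Gata4* and *Tbx5*, at 0.157, and *Tbx20* and *Mef2a*, at 0.194. *Gata6* was closest to *Hand2*, at 0.201. *Mef2c* stood farthest from the rest, with 0.293 to its closest member, *Srf*. All profiles share the same 6 libraries and their scaling, so these distances are given as a description.

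Ratios of related members within a mouse do not depend on the scaling of the library. For *Gata6* over *Gata4*, the log2 ratio of counts was -0.55, -1.02, and -0.06 in WT mice and -0.96, -0.54, and -1.28 in mutants. The ratio varied widely in both genotypes, which overlapped (difference -0.38, exact permutation test, p = 0.5). It was -0.14 without WT mouse 3, -0.21 without mutant mouse 3, and -0.62 without WT mouse 2. For *Tbx20* over *Tbx5*, it was 2.38, 2.78, and 3.37 in WT mice and 2.71, 2.69, and 2.16 in mutants, and the genotypes overlapped (difference -0.32, exact permutation p = 0.4). It was -0.06 without WT mouse 3, -0.14 without mutant mouse 3, and -0.55 without WT mouse 1.

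For *Mef2d* over *Mef2a*, the mean was -0.57 in both genotypes, with an SD of 0.05 in WT mice and 0.33 in mutants (difference 0.01, exact permutation p = 1). *Mef2a* and *Mef2d* over *Mef2c* differed by -0.22 each (exact permutation p = 0.8 and 0.7). *Mef2a* over *Mef2c* differed by -0.59 without mutant mouse 2, -0.39 without WT mouse 1, and -0.03 without mutant mouse 3. After Benjamini-Hochberg adjustment over the 5 ratios, all exact p-values were 1.

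**Figure D5:**
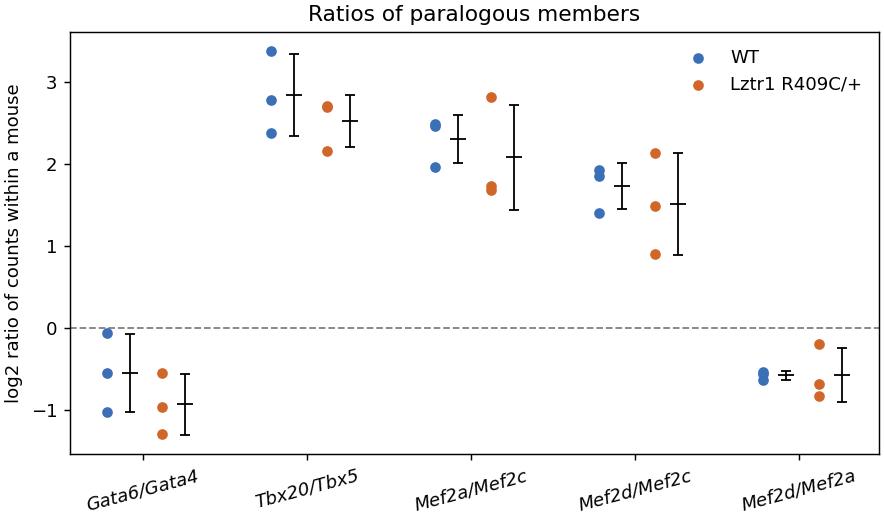
Log2 ratio of the counts of related members within a mouse (vertical axis) by pair; points are mice, and bars are the mean and SD of 3 mice of a genotype. The genotypes overlap in all 5 ratios, and mutant *Mef2d/Mef2a* ratios spread around the tight WT values.

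Relatives of the members were mostly low or silent in the LV. Exceptions were *Irx3* (10.6 to 30.4 CPM), *Irx4* (13.6 to 25.2), and *Gata2* (8.51 to 12.8), which overlapped the member *Tbx5* (10.9 to 20.9 CPM). Of 18 listed GATA, T-box, NK, HAND, MEF2, ISL, and IRX relatives, 10 were tested. *Gata1*, *Tbx4*, *Hand1*, *Nkx2-3*, *Nkx2-6*, and *Isl1*, several of them genes of the embryonic heart, had 0 counts in all 6 mice, which allows levels of up to 0.0317 to 0.0541 CPM. None of the 10 tested had an unadjusted p under 0.05, and their median log2 difference was 0.07. The higher values with the smallest p were those of *Irx3*, a factor of the conduction system (0.41 ± 0.27, SE), and *Tbx3*, a repressor that marks the conduction system (0.37 ± 0.28). The corresponding lower ones were *Tbx18* (-0.29 ± 0.23) and *Gata3* (-0.67 ± 0.75), which lay under 0.5 CPM in every mouse.

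Partners of the members include repressors and co-activators. Of 34 listed cofactors, all tested, 3 were lower with an unadjusted p under 0.05 and 0 were higher. In all tested genes 2.86% were lower and 5.77% higher at that level, and the cofactors' median log2 difference was -0.05. No cofactor passed the adjusted threshold, and without WT mouse 2 only 1 was lower at the unadjusted level. Of the 34 cofactors, 4 were lower without overlap and 0 higher, beside 7.23% and 8.3% of all tested genes. *Zfpm2*, which codes for FOG2, a partner that binds GATA4 and mostly represses it, was at 22.0, 23.4, and 19.0 CPM in WT mice and 13.4, 18.4, and 12.5 CPM in mutants. All mutants were below all WT mice (log2 difference -0.54 ± 0.19, SE, unadjusted p = 0.0133, adjusted p = 0.457). With the length correction the difference was -0.45 (unadjusted p = 0.0247).

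*Hdac9*, a class II deacetylase that holds MEF2 proteins inactive, was at 34.4, 39.1, and 31.6 CPM in WT mice and 29.9, 25.4, and 19.6 CPM in mutants. Its genotypes did not overlap either (-0.49 ± 0.18, unadjusted p = 0.0186, adjusted p = 0.494), and its difference was -0.39 with the length correction (unadjusted p = 0.0427). *Cited2*, a partner of p300 named after its values were seen, had a log2 difference of -0.40 ± 0.18 (adjusted p = 0.564). Its difference was larger with the length correction, at -0.52 (unadjusted p = 0.0130). The other class II deacetylases, *Hdac4*, *Hdac5*, and *Hdac7*, had values of -0.12, -0.12, and 0.06. The SRF partner genes *Myocd*, *Mrtfa*, *Mrtfb*, *Elk1*, *Elk3*, and *Elk4* lay between -0.15 and 0.25. The higher values with the smallest p were those of *Tead2*, a partner of YAP (0.46 ± 0.30), and *Elk1*, an ERK-dependent SRF partner (0.25 ± 0.21).

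Genes that the members are known to activate had a median log2 difference of -0.17, which was -0.07 without mutant mouse 1, -0.34 without mutant mouse 3, and -0.01 without WT mouse 3 and mutant mouse 1. Of 30 listed targets, all tested, 20 were below 0, 3 were lower with an unadjusted p under 0.05, and 0 were higher at that level, beside 48.6%, 2.86%, and 5.77% of all tested genes. Without WT mouse 3 and mutant mouse 1, 15 of the 30 were below 0 and 15 above. No target passed the adjusted threshold. The 3 lower ones became 1 without mutant mouse 2, 2 without any 1 of the WT mice, and 5 with DESeq2. Of the 30 targets, 5 were lower without overlap and 1 was higher, beside 7.23% and 8.3% of all tested genes. *Slc8a1*, the sodium-calcium exchanger, was at 378.5, 381.3, and 411.5 CPM in WT mice and 241.6, 327.5, and 265.6 CPM in mutants. The genotypes did not overlap (-0.49 ± 0.17, SE, unadjusted p = 0.0123, adjusted p = 0.454). With the length correction the difference was -0.37 (unadjusted p = 0.0351).

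*Tagln*, a smooth muscle target of SRF, was at 4.27 to 5.57 CPM in WT mice and 2.91 to 3.71 CPM in mutants (-0.65 ± 0.23, adjusted p = 0.470). Its difference was -0.79 with the length correction (unadjusted p = 0.00378). *Acta1*, the skeletal actin gene and an SRF target named after its values were seen, was at 182.9, 315.1, and 316.9 CPM in WT mice and 181.3, 165.4, and 198.4 CPM in mutants, which overlapped (-0.58 ± 0.21, adjusted p = 0.483). With the length correction its difference was -0.67 (unadjusted p = 0.00807). The higher targets with the smallest p were *Nppa*, for atrial natriuretic peptide (0.53 ± 0.28, adjusted p = 0.643), and *Myl2*, for the ventricular myosin light chain (0.51 ± 0.30, adjusted p = 0.666). *Nppa* ranged from 0.24 without mutant mouse 2 to 0.84 without WT mouse 3 and was 1.06 (unadjusted p = 0.00103, adjusted p = 0.295) without WT mouse 3 and mutant mouse 1, and *Myl2* was 0.12 without mutant mouse 3.

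*Nppb*, for the B-type natriuretic peptide, was at 89.5, 131.4, and 251.9 CPM in WT mice and 161.6, 98.0, and 148.6 CPM in mutants. Its log2 difference was -0.21 (adjusted p = 0.901), and it was -0.49 without WT mouse 1 and turned to 0.30 without WT mouse 3. *Myh6*, for the main myosin heavy chain of the adult mouse heart, was at 17349, 14162, and 14121 CPM in WT mice and 6330, 11876, and 16622 CPM in mutants. *Myh7*, for the fetal form, was at 492.8, 424.1, and 432.2 CPM in WT mice and 216.6, 404.8, and 463.4 CPM in mutants. Mutant mouse 1 was the lowest in both genes. The log2 differences were -0.39 and -0.31 (adjusted p = 0.789 and 0.759), and without mutant mouse 1 they were -0.10 and -0.06. Without mutant mouse 3 they were -0.74 and -0.53 (unadjusted p = 0.0510 and 0.0571). *Actc1*, for cardiac actin, had a value of -0.19 (adjusted p = 0.859), of -0.09 without mutant mouse 1, and of -0.33 without mutant mouse 2.

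Markers of the cell types in the LV were measured beside these genes, and of all of them only *C1qb* and *C1qc* passed the adjusted threshold (log2 differences of 1.15 and 1.19, adjusted p = 0.0241 for both). Neither passed when any 1 mouse was left out, with adjusted p-values of 0.0567 to 0.192, when scaled by library size alone, or with the replicate block, and all values stayed above 1 when a mouse was left out. All 8 macrophage markers were above 0 and 7 had an unadjusted p under 0.05, and their summed level was 138.5 to 149.4 CPM in WT mice and 239.0 to 249.4 CPM in mutants. Of 8 cardiomyocyte markers 5 were below 0, none with an unadjusted p under 0.05, and their sum was 28547 to 34327 CPM in WT mice and 20442 to 35588 CPM in mutants, lowest in mutant mouse 1. Of 8 endothelial markers 7 were above 0, 2 of them higher at that level (*Fabp4* and *Emcn*), and *Kdr* was below 0 (-0.24). The endothelial sum was 695.5 to 835.9 CPM in WT mice and 722.8 to 988.7 CPM in mutants. Of 8 fibroblast markers 5 were above 0 and 3 below it (*Col1a1*, *Col1a2*, and *Col3a1*, with -0.25, -0.07, and -0.03). All 8 were above 0 without WT mouse 3 and also without mutant mouse 1. At the unadjusted level 3 fibroblast markers were higher (*Lum*, *Postn*, and *Tcf21*). This count became 1 without WT mouse 2, WT mouse 3, or mutant mouse 2 or with the replicate block, and 0 by library size alone. It became 5 without WT mouse 3 and mutant mouse 1, with all 8 above 0 and a median of 0.48 against 0.14 in the main fit. The fibroblast sums were 837.3 to 1154 CPM in WT mice and 842.9 to 1152 CPM in mutants.

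Of 8 mural cell markers 4 were above 0, *Kcnj8* (0.29), *Cspg4* (0.20), and *Pdgfrb* (0.20) among them, and 4 below, with a median of 0.05. The mural median was 0.17 without mutant mouse 1, -0.11 without WT mouse 1, and -0.18 without mutant mouse 3, with 6 of 8 below 0. At the unadjusted level 2 were lower (*Myh11* and *Tagln*), with sums of 664.9 to 788.8 CPM in WT mice and 624.7 to 764.6 CPM in mutants. Of 4 epicardial markers 3 were above 0, 2 of them higher at that level (*Upk3b* and *Msln*), and *Wt1* was below 0 (-0.18). The epicardial sums were 4.52 to 5.77 CPM in WT mice and 5.52 to 9.11 CPM in mutants. Of 3 erythroid markers 2 (*Hba-a1* and *Alas2*) were higher, with sums of 345.6 to 869.0 and 612.7 to 1578 CPM. When a mouse was left out, these counts ranged from 1 to 2 for endothelial (higher) and mural (lower) markers and from 1 to 3 for epicardial and erythroid markers. Without mutant mouse 1, 2 mural markers were also higher at the unadjusted level. By library size alone, 0 endothelial and 4 macrophage markers were higher. The part of these cell types in the levels of the members, their partners, and their targets was not tested.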

How the data were processed

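mRNA-Seq was performed on the LVs of 3 WT and 3 *Lztr1* R409C/+ mice with 1 library per mouse. The authors deposited whole-number counts per gene without normalization. Per the labels and the study's methods, reads were trimmed with Trim Galore, aligned to GRCm39 with HISAT2, and processed with StringTie and edgeR after rRNA was excluded. The annotation release is not given in the sources used here. A further table that the authors deposited holds their edgeR results, and only its gene names were used. Its log2 fold changes, average log2 CPM, p-values, and adjusted p-values were not used.

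Counts were analyzed in R 4.3.3 with edgeR 4.0.16 by filterByExpr, TMM, and the robust quasi-likelihood test (design by genotype), two-sided, with Benjamini-Hochberg adjustment over all 17212 tested genes at 0.05. Steps were tested on simulated data. Of 56923 identifiers, 56236 matched GENCODE vM39, which gave positions, exon lengths, and GC content. Alternatives were other scalings, DESeq2 1.42.0, edgeR's exact test, other filters, removal of mitochondrially encoded genes, a replicate block, length and GC corrections (loess span 0.5), and omission of each mouse. The GC correction, the omission of 2 mice together, the addition of counts of overlapping genes, and the canonical length were chosen after seeing the data.

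The rule for the members uses names only, but the members and the lists of relatives, cofactors, targets, and markers were proposed with earlier results of these data known. Named are all members, *Lztr1*, and 5 hypertrophy-related targets. From the lists of relatives, cofactors, and targets, the 2 higher and 2 lower genes with the smallest unadjusted p are also named. From the lists of markers only some such genes are named, and not all named markers are given values. Other cofactors, relatives, and markers, such as *Cited2*, the further deacetylase and SRF partner genes, *Acta1*, and the genes at 0, were named after their values were seen. Likeness is the smallest root mean square difference of centered log2 CPM. Left out were tests of gene sets.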

Additional observations from a re-analysis of the deposited data

How the results depend on the processing

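No member passed the adjusted threshold in any of the 21 alternatives to the fit, of which 4 were chosen after seeing the data. The number of members with an unadjusted p under 0.05 was 1 with DESeq2 and without a filter on low counts (*Tbx20* in both). It was also 1 with the length or GC correction (*Hand2*), with or without the replicate block, and 0 to 1 when a mouse was left out. Among all tested genes, 1584 of 17212 were under 0.05 with DESeq2 and 1955 of 27480 without a filter. With the length correction 1344 of 17127 were, and 1100 with the block added. With the GC correction 1787 of 17127 were, and 1610 with the block added. With a mouse left out, 1198 to 1459 genes were under 0.05. The number of members below 0 ranged from 6 to 10, beside 42.9% (upper quartile) to 65.5% (library size alone) of all tested genes. The members *Gata6*, *Nkx2-5*, *Tbx20*, and *Hand2*, were below 0 in all alternatives. The number of members lower without overlap was 0 when scaled by library size alone or by the upper quartile, 3 without WT mouse 3 and mutant mouse 1, and 0 to 3 when 1 mouse was left out. Of all genes, 7.23% were lower without overlap, 19.9% without these 2 mice, and 11.1% to 13% when 1 mouse was left out.

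The other members changed sign (log2 differences). *Gata4* was -0.0405 with the GC correction, -0.00359 with the block and that correction, and -0.18 to 0.28 when a mouse was left out. *Tbx5* was 0.0232 with antisense counts added and -0.31 to 0.11 when a mouse was left out. *Mef2a* was 0.0288 with the length correction, 0.0269 with that and the block, and -0.18 to 0.0455 when a mouse was left out. *Mef2c* was -0.20 without WT mouse 3 and mutant mouse 1 and -0.0375 to 0.40 when a mouse was left out. *Mef2d* was -0.18 to 0.0337 when a mouse was left out, and *Srf* was 0.0159 with the upper quartile and -0.11 to 0.0408. The relatives' median was -0.10 by library size alone, -0.00127 with the block and length correction, -0.0303 with the GC correction, -0.0416 with that and the block, and -0.0306 to 0.17 when a mouse was left out, and the cofactors' was -0.13 to 0.0224. Without these 2 mice, *Mef2a/Mef2c* differed by 0.0418 and *Mef2d/Mef2c* by 0.15. The targets' median was -0.34 to -0.07 when a mouse was left out. Scaled by library size alone, the cofactors' median was -0.19 with 29 of 34 below 0, and the targets' median was -0.31 with 23 of 30 below 0. With that scaling, the median of all genes was -0.14. With a mouse left out, *Mef2d/Mef2c* ranged from -0.53 to 0.0865 and *Mef2d/Mef2a* from -0.18 to 0.14. The cause was not tested.

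Of all genes, 7 passed the adjusted threshold, 21 by library size alone, 158 with DESeq2, 140 with the exact test, 20 without a filter, 1 without the same 2 mice, and 2 to 4 when a mouse was left out. Unadjusted, 993 genes were higher and 493 lower, against 388 and 301 by library size alone (689 in all) and 1176 and 305 with the upper quartile. With the replicate block 1 gene passed, 1 with the block and length correction, and 3 with the block and GC correction. Deviations of mice with the same number correlated at -0.0013, 0.02, and -0.06. Such correlations cannot show whether the mice were paired by number, which the labels do not state.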
